A study of Mus musculus with 52 samples.

Results

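RNA of whole brain was compared between 3 female NZB/W-F1 mice and 3 female C57BL/6 mice, all 3 months old, across every gene of the deposited brain table. The comparison takes the 6 libraries labelled as 3-month brain of either strain, of 52 libraries in the series. NZB/W-F1 mice are the first-generation hybrids of an NZB mother and an NZW father and are used as a model of lupus. Their 3-month brains are labelled as taken before autoimmunity, and the C57BL/6 brains as healthy. The study gives no treatment for any of these mice, and states that NZB/W-F1 mice were perfused with PBS, a saline buffer, before dissection. The other brain groups of the study were NZB/W-F1 at 1 month, before puberty, and at 6 months, with nephritis, each set against C57BL/6 of the same age, and kidney and spleen were taken as well. The 2 groups differ in their whole genetic background, so an effect of the lupus-prone state and any other difference between the strains cannot be told apart.

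Lupus is an autoimmune disease in which antibodies to the body's own nuclear material, type I interferon and immune complexes damage kidney, skin, joints and brain. In the brain it is known for neuropsychiatric symptoms, and microglia, the resident macrophages of brain tissue, and cytokines are among what has been studied there. NZB/W-F1 females develop antinuclear antibodies and fatal nephritis with age, and C57BL/6 is a common laboratory strain and the source of mm10, the mouse genome build that the submitters' processing notes name.

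The 3 NZB/W-F1 libraries held 11237611 to 13616540 reads in genes and the 3 C57BL/6 libraries 12000447 to 17523105. Levels are given as CPM, read counts scaled to library size by the authors, and 3 reads, the floor used against a count of 0, were worth 0.172 to 0.265 CPM. Snap25, which encodes a neuronal protein of synaptic vesicle release, had 2441, 2496 and 2456 CPM in NZB/W-F1 brains, against 2661, 2824 and 2387 CPM in C57BL/6 brains. The groups overlapped for this defining neuronal gene, while the summed levels of the excitatory neuron markers given below did not. Replicate 1 of NZB/W-F1 and replicate 2 of C57BL/6 stood apart from the other 2 libraries of their group. The mean squared difference of their reads over its counting error was 20.7 and 31.4 per gene for that NZB/W-F1 library and 18.1 and 26.2 for that C57BL/6 library, against 7.94 and 8.27 between the other 2 libraries of each strain. In the NZB/W-F1 library that stood apart, genes of 10 CPM or more with up to 3221 bases of exon lay at a median of 0.16 above its group on the log2 scale and those of 7631 bases or more 0.15 below. In the C57BL/6 library they lay 0.07 below and 0.10 above. The part of these libraries in each difference was not tested beyond the counts given with and without them.

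Of 14895 genes, 579 (3.89%) passed an adjusted p of 0.05 in limma, of which 290 (1.95%) were higher in NZB/W-F1 and 289 (1.94%) lower. By more than 2-fold, 170 of them were higher and 98 lower, and the median log2 fold change over all genes was -0.01. In 578 of the 579 the 3 libraries of each strain did not overlap, as was so for 2442 genes (16.4%) of all tested. Left without the 2 libraries that stood apart, the fit called 981 genes (6.59%), 558 higher and 423 lower, of which 437 were among the 579. Of 54 gene lists with 5 or more members tested, 25 then had more members called, 6 fewer and 23 the same number. On the first principal component of the 6 libraries, their axis of largest spread, the 2 left out lay nearest to the other strain. NZB/W-F1 replicate 1 lay at -15.97, against -27 and -30.75, and C57BL/6 replicate 2 at 17.5, against 29.07 and 27.16. Leaving both out therefore widens the gap between the strains, also by exon length, and calls it adds are no separate support. The kinds of gene differed between the 2 directions. Of 259 pseudogenes tested, 108 (41.7%) were higher in NZB/W-F1 and 4 (1.54%) lower. Of 13758 protein-coding genes, 159 (1.16%) were higher and 242 (1.76%) lower, and of 853 long non-coding RNA genes 23 were higher and 41 lower.

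**Figure D1:**
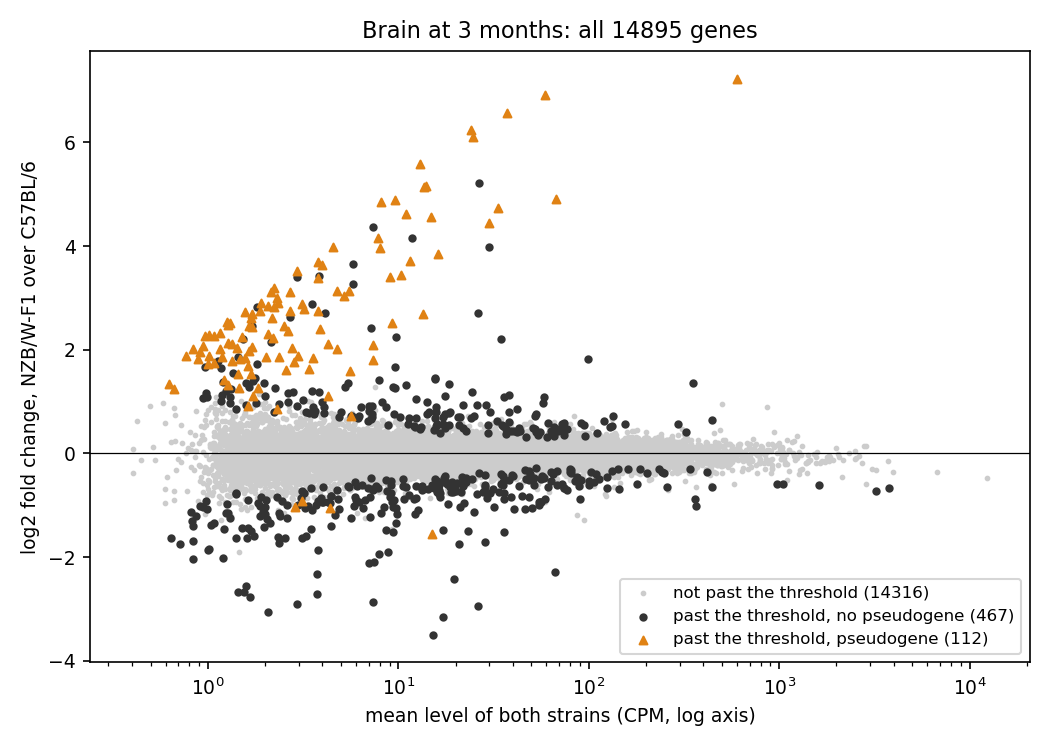
Log2 fold change of NZB/W-F1 over C57BL/6 in 3-month brain against the mean level of both strains in CPM (log axis), with 1 point a gene. Pseudogenes past the threshold are triangles, other genes past it are dark circles and the other genes are grey; 108 of the 112 triangles lie above 0.

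Pseudogenes are mostly reverse-transcribed or duplicated copies of genes, so the sequence they share with other genes was counted as the share of a gene's 31-base words found in transcripts of another gene. Among 455 genes with 50% or more of such words, 22.2% were higher and 4.18% lower, together 26.4%, against 126 higher and 146 lower of 10226 genes with under 5%, together 2.66%. In 73 of the 108 higher pseudogenes 50% or more of the words occurred in 1 other gene of the table, and for 68 that gene was no pseudogene. Its log2 fold change was below 0 in 59 of the 68, with a median of -0.27, against -0.01 over all genes. The gene passed the threshold as lower in 24 of the 68 pairs, which held 22 different genes, and as higher in 1. Of all genes 1.94% passed as lower and 1.95% as higher.

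The sequences of 3 such pairs show how few bases separate a gene from its copy. They are coding stretches of 60 bases from the reference genome, GRCm38 with GENCODE M21 annotation, and capitals mark the bases at which gene and copy differ. Ndufs5 encodes an accessory subunit of mitochondrial complex I, and its stretch lies in exon 2 on the minus strand at chr4:123715975-123716034, that of its pseudogene BC002163 on the plus strand at chr16:42955676-42955735. They differ at 2 of 318 coding bases compared, an identity of 99.4%.
Ndufs5: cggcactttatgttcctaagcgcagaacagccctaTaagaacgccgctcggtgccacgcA
BC002163: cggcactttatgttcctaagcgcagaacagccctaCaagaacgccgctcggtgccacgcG
Rpl26 encodes a protein of the large ribosomal subunit, with its stretch in exon 3 on the plus strand at chr11:68903179-68903238 and that of its pseudogene Gm15772 on the plus strand at chr5:3236599-3236658. They differ at 2 of 435 coding bases, an identity of 99.5%.
Rpl26: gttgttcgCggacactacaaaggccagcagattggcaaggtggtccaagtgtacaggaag
Gm15772: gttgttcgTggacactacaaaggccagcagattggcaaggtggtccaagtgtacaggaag
Tdg encodes thymine DNA glycosylase, a DNA repair enzyme, with its stretch in exon 10 on the plus strand at chr10:82648578-82648637 and that of its pseudogene Gm9855 on the minus strand at chr10:42054196-42054255. They differ at 9 of 1191 coding bases, an identity of 99.2%.
Tdg: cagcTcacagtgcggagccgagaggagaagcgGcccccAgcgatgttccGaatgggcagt
Gm9855: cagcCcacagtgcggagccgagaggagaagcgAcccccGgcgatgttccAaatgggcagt

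In each of these pairs the gene was lower and the copy higher in NZB/W-F1, as the choice of the pairs required. Ndufs5 had 2.71, 3.27 and 3.28 CPM in NZB/W-F1 brains, against 33.5, 31.4 and 28.9 CPM in C57BL/6 brains (log2 fold change -3.15 ± 0.14, adjusted p = 1.31e-11, with the standard error after ±). BC002163 had 30.6, 27.7 and 28.1 CPM in NZB/W-F1 brains, against 0.853, 0.985 and 0.459 CPM in C57BL/6 brains (log2 fold change 4.56 ± 0.19, adjusted p = 6.10e-12). Their sum was 33.4, 30.9 and 31.4 CPM in NZB/W-F1, against 34.4, 32.3 and 29.3 CPM in C57BL/6, a ratio of means of 0.996. The sums of the 2 strains overlapped, while neither gene nor copy did. Rpl26 had 20.6, 23.7 and 23 CPM in NZB/W-F1 brains, against 118, 110.1 and 106 CPM in C57BL/6 brains (log2 fold change -2.29 ± 0.16, adjusted p = 1.11e-08), and Gm15772 76, 75.1 and 72.1 CPM in NZB/W-F1 brains, against 0.341, 0.232 and 0.287 CPM in C57BL/6 brains (log2 fold change 6.58 ± 0.15, adjusted p = 1.35e-15). Here the sums did not overlap, with 96.6, 98.8 and 95 CPM in NZB/W-F1, against 118, 110.3 and 106 CPM in C57BL/6, a ratio of 0.867. Tdg had 4.90, 4.69 and 6.40 CPM in NZB/W-F1 brains, against 15.3, 14.7 and 12.7 CPM in C57BL/6 brains (log2 fold change -1.34 ± 0.15, adjusted p = 4.98e-06). Gm9855 had 4.83, 6.45 and 6.25 CPM in NZB/W-F1 brains, against 0.0853, 0.0579 and 0 CPM in C57BL/6 brains (adjusted p = 1.06e-10). Its 219 reads in NZB/W-F1 against 2 in C57BL/6 gave a NZB/W-F1 to C57BL/6 ratio of 138 with an exact 95% counting interval of 37.7 to 1144, and the ratio of the sums was 0.783. These 3 are the pairs with the largest fall of the gene among those whose sum stayed within 1.5-fold. Their directions and the closeness of their sums were thus conditions of the choice and no separate result.

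**Figure D2:**
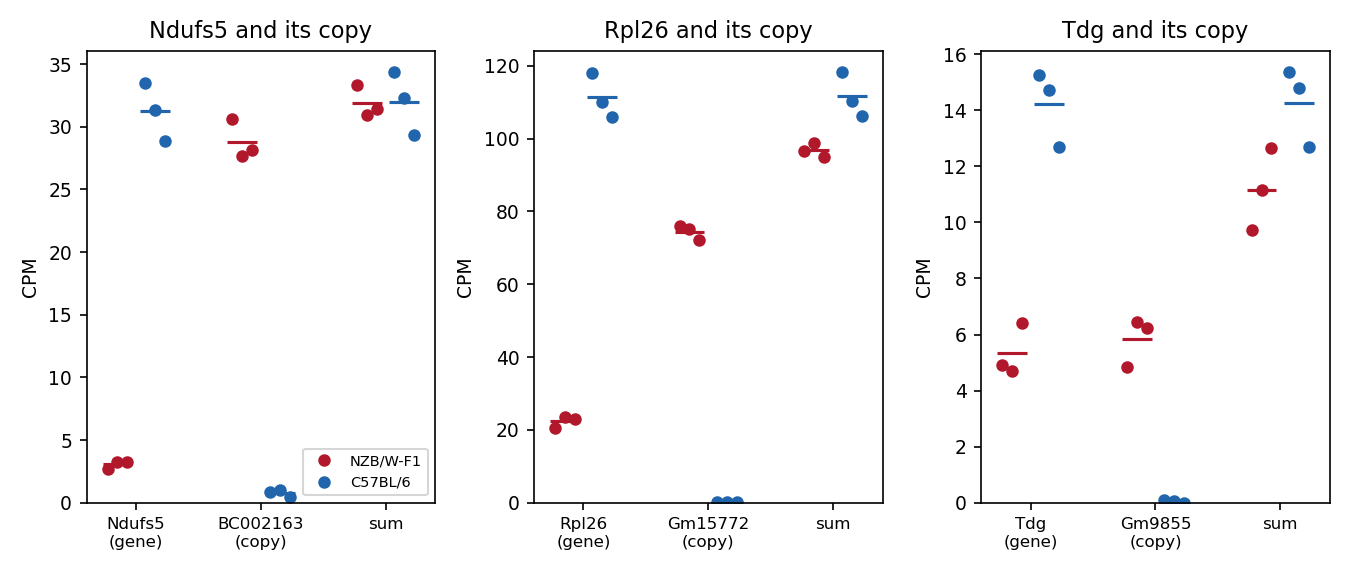
Levels in CPM of 3 genes, of a near-identical copy of each and of their sum in each 3-month brain library, with lines at the means of NZB/W-F1 (left) and C57BL/6 (right). For Ndufs5 and BC002163 the sums overlap, with a ratio of means of 0.996.

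Over the 24 pairs in which the gene passed as lower, the ratio of summed levels was 0.513 to 4.4 with a median of 0.782, and in 18 it lay within 1.5-fold of 1. Fabp5, a fatty acid carrier, and its copy Gm6166 gave a ratio of 0.903, and Psmb5, a catalytic subunit of the proteasome, and Gm3375 gave 1.15. Atp6v0c, a subunit of the vacuolar proton pump, had 20.3, 22.1 and 19.8 CPM in NZB/W-F1 brains, against 37.2, 52 and 40.1 CPM in C57BL/6 brains, and its copy Atp6v0c-ps2 had 128, 142 and 120.3 CPM in NZB/W-F1 brains, against 4.01, 4 and 3.5 CPM in C57BL/6 brains, so that the sum was 3.22 times as high in NZB/W-F1. The same arrangement was seen in protein-coding genes with a near copy. Eno1b, annotated as a protein-coding gene, shares 81.8% of its words with Eno1, the glycolytic enolase. Eno1b had 56.5, 51.9 and 48.6 CPM in NZB/W-F1 brains, against 0.682, 0.579 and 1.72 CPM in C57BL/6 brains (log2 fold change 5.22 ± 0.36, adjusted p = 1.11e-08), and Eno1 286, 229.7 and 215 CPM in NZB/W-F1 brains, against 526, 454 and 498 CPM in C57BL/6 brains (log2 fold change -1.02 ± 0.12, adjusted p = 8.47e-06). Their sum had a ratio of 0.599, outside 1.5-fold, and did not overlap between the strains. Tpm3-rs7 (4.16) was higher and Tpm3, a tropomyosin, lower (-0.47), with a sum ratio of 0.938. Likewise Hmga1b (3.28) was higher and Hmga1, a chromatin protein, lower (-0.96), with a sum ratio of 0.867. Reads of such pairs may have been assigned to either gene, and the fold changes of both members are therefore uncertain. How mm10 alignment of hybrid reads bears on them was not tested.

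On the log2(CPM + 0.5) scale the largest fold of all was that of Gm13340, a pseudogene at chr2:22588103-22589647 that shares 45.2% of its words with the mitochondrial gene mt-Co1. By the ratio of mean CPM other copies, Gm13394 and Gm15772 among them, exceeded it. Gm13340 had 1094, 1169 and 1327 CPM in NZB/W-F1 brains, against 9.81, 7.13 and 5.86 CPM in C57BL/6 brains (log2 fold change 7.23 ± 0.17, adjusted p = 1.35e-15). The strains lay far apart, while mt-Co1 itself did not pass (log2 fold change -0.48 ± 0.15, adjusted p = 0.0897). Gm13394, a processed copy of Gapdh at chr2:28933610-28934609, followed with 153, 108 and 93.3 CPM in NZB/W-F1 brains, against 0.682, 0.290 and 0.459 CPM in C57BL/6 brains (log2 fold change 6.91 ± 0.29, adjusted p = 6.74e-12). It shares 96.8% of its words with Gapdh, and the sum of both had a ratio of 0.946. A mitochondrial gene with a nuclear copy showed the arrangement of the pairs above, with the gene lower and the copy higher. This was mt-Nd3, a complex I subunit of the mitochondrial genome. It had no read in any NZB/W-F1 library and 184 reads in C57BL/6, 5.71, 1.51 and 5.22 CPM. The C57BL/6 mean was 17.3 times the mean level of 3 reads in the NZB/W-F1 libraries. This is a bound for the means only, as C57BL/6 replicate 2 had 1.51 CPM. Its nuclear copy Gm28438 at chr1:24612775-24613119, which holds 99.0% of its words in mt-Nd3, had 22.1, 16.1 and 18.7 CPM in NZB/W-F1 brains, against 0.0853, 0.348 and 0.0574 CPM in C57BL/6 brains.

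Protein-coding genes with under 20% shared words made up 320 of the calls, 135 higher and 185 lower. Under plain CPM scaling 156 were higher and 151 lower, and without the 2 libraries that stood apart 390 and 316, so which direction held more calls depended on both choices. The count was 706 without those 2 libraries, 182 without C57BL/6 replicate 1, 189 without NZB/W-F1 replicate 2 and 197 without NZB/W-F1 replicate 3. The named genes of this kind were those with the largest folds or differences in level. All of those described in this and the next paragraph kept their call under every alternative that tested them, Aldh3b2, Hddc3, Eif3j2, Tceanc2 and Actb included. Gabra2, the alpha-2 subunit of the GABA-A receptor, the main inhibitory receptor of the brain, lies at chr5:70957597-71095849. It had 119, 149 and 195 CPM in NZB/W-F1 brains, against 42.3, 55.5 and 32.9 CPM in C57BL/6 brains (log2 fold change 1.82 ± 0.20, adjusted p = 6.32e-06), with every NZB/W-F1 library above every C57BL/6 library. Wdfy1, an endosomal adaptor protein at chr1:79702262-79776143, had 55.2, 55.9 and 61.5 CPM in NZB/W-F1 brains, against 11.6, 12.9 and 11.7 CPM in C57BL/6 brains (log2 fold change 2.21 ± 0.11, adjusted p = 1.48e-10). Pla2g4e, a calcium-dependent enzyme that makes N-acyl phospholipids, lies at chr2:120166412-120245335 and had 44.3, 51.5 and 42.2 CPM in NZB/W-F1 brains, against 5.54, 5.79 and 8.84 CPM in C57BL/6 brains (log2 fold change 2.71 ± 0.24, adjusted p = 3.62e-07). The spread within each strain was small beside these gaps. Scg5, the chaperone 7B2 of a prohormone convertase, had the largest gain in level among named genes that are no pseudogenes, with 536, 507 and 484 CPM in NZB/W-F1 brains, against 216, 203 and 175 CPM in C57BL/6 brains (log2 fold change 1.37 ± 0.09, adjusted p = 8.14e-09). Folh1, which cleaves the neuropeptide N-acetylaspartylglutamate, had 24.6, 21.3 and 23.5 CPM in NZB/W-F1 brains, against 7.76, 9.62 and 7.18 CPM in C57BL/6 brains (log2 fold change 1.45 ± 0.19, adjusted p = 5.52e-05). Lrat, which esterifies vitamin A, had 4.46, 4.69 and 5.93 CPM in NZB/W-F1 brains, against 0.341, 0.348 and 0.459 CPM in C57BL/6 brains (log2 fold change 2.64 ± 0.24, adjusted p = 4.14e-07). For all 3 of these every NZB/W-F1 library exceeded every C57BL/6 library. Aldh3b2, an aldehyde dehydrogenase with 30.7% shared words, had 17.6, 11.4 and 8.67 CPM in NZB/W-F1 brains, against 2.39, 1.85 and 1.38 CPM in C57BL/6 brains (log2 fold change 2.42 ± 0.25, adjusted p = 2.03e-06). Hddc3 (1.66) and Eif3j2 (2.71) were also higher, but share 70.2% and 94.9% of their words with other genes.

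Among genes that were lower, Pttg1, which encodes securin, a protein of cell division, lies at chr11:43420250-43426251. It had 2.34, 1.41 and 2.58 CPM in NZB/W-F1 brains, against 30.3, 25.9 and 29.1 CPM in C57BL/6 brains (log2 fold change -3.5 ± 0.19, adjusted p = 3.88e-10). Myoc, which encodes the secreted glycoprotein myocilin, lies at chr1:162639155-162649693 and had 7.32, 5.22 and 4.68 CPM in NZB/W-F1 brains, against 39.6, 47.8 and 53.7 CPM in C57BL/6 brains (log2 fold change -2.94 ± 0.23, adjusted p = 7.86e-08). For both the highest NZB/W-F1 library lay far below the lowest C57BL/6 library. Tnni1, slow skeletal troponin I, had 0.878, 0.619 and 0.390 CPM in NZB/W-F1 brains, against 7.85, 6.14 and 6.49 CPM in C57BL/6 brains (log2 fold change -2.71 ± 0.23, adjusted p = 2.09e-07). Bfsp2, a beaded filament protein known from the lens, had 0.512, 0.265 and 0.156 CPM in NZB/W-F1 brains, against 6.91, 4.87 and 4.94 CPM in C57BL/6 brains (log2 fold change -2.91 ± 0.26, adjusted p = 2.77e-07), and Mybpc1, a myosin-binding protein of slow muscle, had 2.93, 2.39 and 3.28 CPM in NZB/W-F1 brains, against 10.5, 9.10 and 19.3 CPM in C57BL/6 brains (log2 fold change -1.93 ± 0.28, adjusted p = 1.60e-04). Each was above 0 in brain of both strains, and its groups did not overlap. Eps8l1, a relative of the actin regulator Eps8, had 1.02, 1.41 and 1.48 CPM in NZB/W-F1 brains, against 15.3, 18.2 and 6.95 CPM in C57BL/6 brains (log2 fold change -2.86 ± 0.31, adjusted p = 3.91e-06), with C57BL/6 replicate 3 well below the other 2. Myo7a, an unconventional myosin of sensory hair cells, had 12.8, 7.60 and 8.20 CPM in NZB/W-F1 brains, against 31.8, 28.7 and 36.4 CPM in C57BL/6 brains (log2 fold change -1.74 ± 0.24, adjusted p = 9.97e-05). Etnppl, an astrocyte enzyme that breaks down phosphoethanolamine, had 16.5, 10.9 and 12.3 CPM in NZB/W-F1 brains, against 44, 44.9 and 42.7 CPM in C57BL/6 brains (log2 fold change -1.71 ± 0.24, adjusted p = 1.16e-04). Tceanc2 was lower as well (log2 fold change -1.91 ± 0.19, adjusted p = 1.13e-06), and 18% of its exons overlap a gene on the other strand, whose reads cannot be told apart from its own. Actb, cytoplasmic actin, was lower by a log2 fold change of -0.59 ± 0.08 (adjusted p = 1.13e-04), with 769.8, 859 and 721 CPM in NZB/W-F1 brains, against 1191, 1145 and 1192 CPM in C57BL/6 brains.

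**Figure D3:**
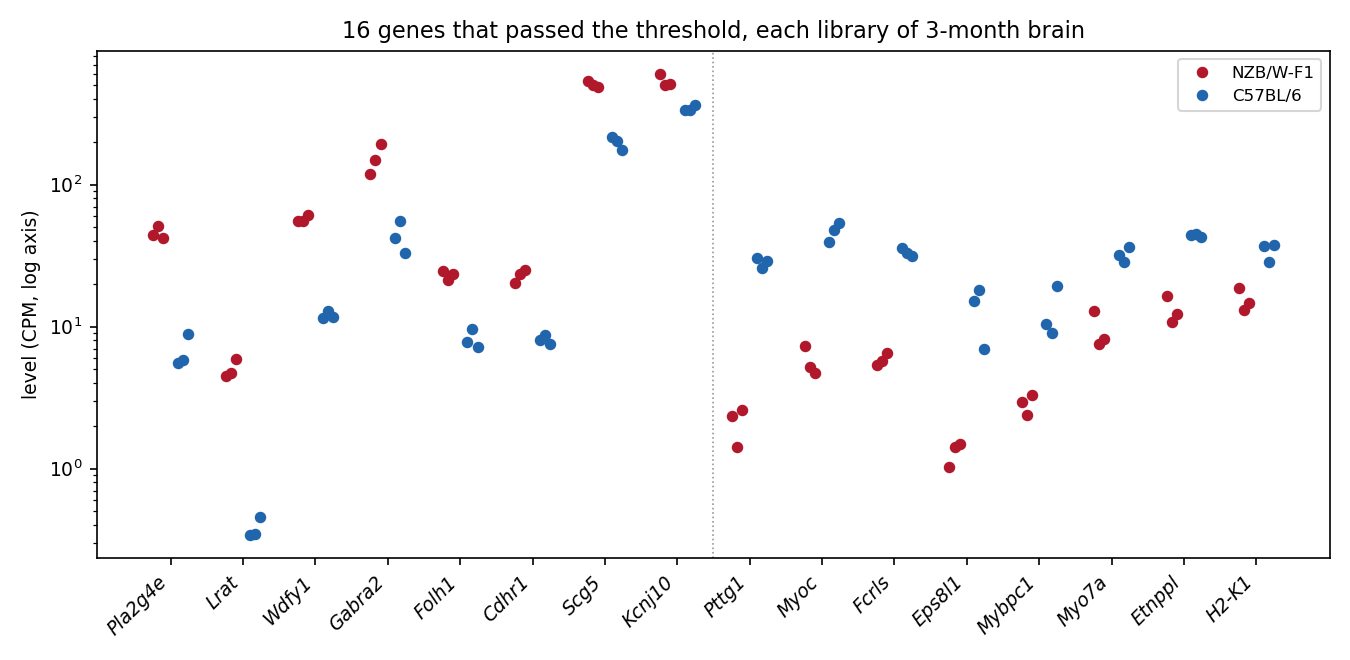
Level in CPM (log axis) of 16 genes past the threshold in each 3-month brain library, with NZB/W-F1 left of C57BL/6 for each gene. The genes left of the dotted line are higher in NZB/W-F1 and those right of it lower, and for all 16 the 3 libraries of each strain do not overlap.

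Neuronal gene groups differed in few members. Of 21 GABA and glycine receptor genes 2 were higher, Gabra2 and Gabra6, and 0 lower, with a median log2 fold change of 0.08, against 1.95% of all genes higher. Without the 2 libraries that stood apart 4 were higher, Gabrb1 and Gabrb2 as well, where 3.75% of all genes were higher. Gabra6, the subunit of cerebellar granule cells, had 64.7, 97.4 and 66.1 CPM in NZB/W-F1 brains, against 37.6, 30.5 and 47.8 CPM in C57BL/6 brains (log2 fold change 0.97 ± 0.21, adjusted p = 0.00906), and its call was lost without NZB/W-F1 replicate 2 (adjusted p = 0.0763) and without C57BL/6 replicate 2 (adjusted p = 0.0591). Gabra6 was also the single member called of 16 cerebellum markers, whose median was 0.21 and whose summed level was 2054 to 3090 CPM in NZB/W-F1 brains, against 1672 to 2560 CPM in C57BL/6 brains. In whole tissue, more cells of a type and more RNA per cell cannot be told apart. Of 24 glutamate receptor genes limma called 0, with a median of 0.00; 4 had an unadjusted p under 0.05, and edgeR called 0 and DESeq2 0. Of 35 receptor genes for monoamines and acetylcholine it also called 0, where 4 had an unadjusted p under 0.05, and edgeR called 0 and DESeq2 0. Among 27 genes of synaptic vesicle release 0 were called and 3 had an unadjusted p under 0.05, and edgeR called 0 and DESeq2 0. Of 35 potassium channel genes 1 was higher, Kcnj10, and 1 lower, Kcnip3, a calcium-binding channel partner (log2 fold change -0.41 ± 0.10, adjusted p = 0.0297). The call of Kcnip3 was lost when any of 3 of the 6 libraries was left out (adjusted p 0.102 to 0.181), namely C57BL/6 replicate 1 or 3 or NZB/W-F1 replicate 3. Kcnj11, a subunit of the ATP-sensitive potassium channel that is on no list and was named after its values were seen, had 29, 30.1 and 24.1 CPM in NZB/W-F1 brains, against 55.9, 41.9 and 53.2 CPM in C57BL/6 brains (log2 fold change -0.84 ± 0.15, adjusted p = 0.00216).

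Immediate early genes, which neurons switch on within minutes of activity, lay lower without passing. Limma called 0 of 17, where 2 had an unadjusted p under 0.05, and edgeR called 0 and DESeq2 0. Their median log2 fold change was -0.52, against -0.01 over all genes, and 3 of 17 lay above 0. Their summed level was 1720, 1220 and 1109 CPM in NZB/W-F1 brains, against 1904, 1926 and 1770 CPM in C57BL/6 brains, so that every NZB/W-F1 library was below every C57BL/6 library and NZB/W-F1 replicate 1 was nearest to them. Excitatory neuron markers had a median of -0.19 over 13 genes with 0 called by limma, where 2 had an unadjusted p under 0.05, and edgeR called 1 and DESeq2 1. The summed level of these 13 genes was 4543 to 5553 CPM in NZB/W-F1 brains, against 5822 to 6324 CPM in C57BL/6 brains, without overlap. Of the 13, 3 lay above 0. Inhibitory neuron markers had a median of -0.02, and 1 of 13 was called, against 3.89% of all genes. This was Adarb2, a member of the RNA-editing enzyme family without known editing activity, with 34.9, 61.4 and 51.4 CPM in NZB/W-F1 brains, against 20.4, 27 and 20.4 CPM in C57BL/6 brains (log2 fold change 1.08 ± 0.17, adjusted p = 3.23e-04). Of 9 olfactory bulb markers 1 was higher, against 1.95% of all genes, Cdhr1, a cadherin of mitral cells and photoreceptors, with 20.2, 23.6 and 25.2 CPM in NZB/W-F1 brains, against 8.02, 8.81 and 7.52 CPM in C57BL/6 brains (log2 fold change 1.45 ± 0.27, adjusted p = 0.00266). Of 12 striatum markers and 10 hippocampus markers 0 were called by limma, edgeR or DESeq2, and 0 had an unadjusted p under 0.05.

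Glia differed in single genes. Of 13 astrocyte markers 1 was higher and 0 lower, against 3.89% of all genes called, with a median of 0.13 and a summed level of 7857 to 8307 CPM in NZB/W-F1 brains, against 7406 to 7955 CPM in C57BL/6 brains. That one was Aqp4, the water channel of astrocyte end-feet, with 342, 335 and 372 CPM in NZB/W-F1 brains, against 210.5, 259 and 238 CPM in C57BL/6 brains (log2 fold change 0.57 ± 0.15, adjusted p = 0.0340). Kcnj10, the Kir4.1 channel with which astrocytes take up potassium, had 604, 504 and 513 CPM in NZB/W-F1 brains, against 335, 336 and 366 CPM in C57BL/6 brains (log2 fold change 0.64 ± 0.12, adjusted p = 0.00239). Slc4a4, a sodium bicarbonate cotransporter of astrocytes, had 348, 377 and 393 CPM in NZB/W-F1 brains, against 244, 284 and 310.3 CPM in C57BL/6 brains (log2 fold change 0.42 ± 0.11, adjusted p = 0.0311). Without the 2 libraries that stood apart 2 of the 13 markers were called, Aqp4 higher and Aldoc, a glycolytic aldolase of astrocytes, lower. The call of Kcnj10 held under every alternative, that of Aqp4 was lost when any of 5 of the 6 libraries was left out (adjusted p 0.0592 to 0.197), all but C57BL/6 replicate 2, and that of Slc4a4 when any of 4 of the 6 libraries was left out (adjusted p 0.0659 to 0.224), namely C57BL/6 replicate 1 or 2 or NZB/W-F1 replicate 2 or 3. Of 16 oligodendrocyte and myelin genes limma called 0, with a median of -0.17; 2 had an unadjusted p under 0.05, and edgeR called 0 and DESeq2 1. Of 15 endothelial markers it called 0, where 1 had an unadjusted p under 0.05, and edgeR called 0 and DESeq2 0, and of 18 genes of the blood-brain barrier 0, where 4 had an unadjusted p under 0.05, and edgeR called 0 and DESeq2 1. Of 9 ependymal markers Rsph1, a radial spoke protein of cilia, was higher (log2 fold change 1.06 ± 0.21, adjusted p = 0.00378) and Ccdc153 lower (log2 fold change -0.91 ± 0.23, adjusted p = 0.0294), against 1.95% and 1.94% of all genes. The call of Ccdc153 was lost when any of 4 of the 6 libraries was left out (adjusted p 0.0743 to 0.185), all but C57BL/6 replicate 2 and NZB/W-F1 replicate 3.

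Microglia were marked by 1 large difference. Fcrls, an Fc receptor-like protein of microglia at chr3:87250758-87263738, had 5.34, 5.75 and 6.56 CPM in NZB/W-F1 brains, against 35.6, 33.2 and 31.7 CPM in C57BL/6 brains (log2 fold change -2.42 ± 0.18, adjusted p = 2.58e-08). Of 20 microglia markers Fcrls and C1qc were lower and 0 were higher, against 1.94% of all genes lower, the median was -0.08 and the summed level was 646 to 763 CPM in NZB/W-F1 brains, against 748 to 764 CPM in C57BL/6 brains. The sums overlapped at their ends. DESeq2 called 3 of the 20, and without the 2 libraries that stood apart limma called 4, all lower, C1qb and Trem2 as well as the 2 above, where 2.84% of all genes were lower. C1qc, a chain of the first complement component, had 42.5, 26.5 and 27.9 CPM in NZB/W-F1 brains, against 65, 45.8 and 60.6 CPM in C57BL/6 brains (log2 fold change -0.83 ± 0.19, adjusted p = 0.0171), and its partner chain C1qb had 43.5, 30.2 and 37.1 CPM in NZB/W-F1 brains, against 54.8, 51.6 and 54.9 CPM in C57BL/6 brains without passing (log2 fold change -0.55 ± 0.16, adjusted p = 0.0597), although it passed without the 2 libraries that stood apart (adjusted p = 0.0338). The call of C1qc was lost when any of 4 of the 6 libraries was left out (adjusted p 0.0776 to 0.115), namely C57BL/6 replicate 1 or 3 or NZB/W-F1 replicate 2 or 3. P2ry12, the purinergic receptor of resting microglia, had 38.9, 50.5 and 52.2 CPM in NZB/W-F1 brains, against 31.1, 35.8 and 27.1 CPM in C57BL/6 brains (log2 fold change 0.58 ± 0.21, adjusted p = 0.179). It did not pass, although its groups did not overlap and its level lay on the other side from that of Fcrls. Of 15 genes of disease-associated microglia 1 passed, Lpl, lipoprotein lipase, which was higher with 26.9, 36.2 and 38.6 CPM in NZB/W-F1 brains, against 14.4, 18.5 and 11.2 CPM in C57BL/6 brains (log2 fold change 1.19 ± 0.18, adjusted p = 3.63e-04). Slc2a5, a fructose transporter of microglia that was named after its values were seen, was lower (log2 fold change -0.95 ± 0.21, adjusted p = 0.0108), but not without C57BL/6 replicate 1 (adjusted p = 0.0639) or NZB/W-F1 replicate 3 (adjusted p = 0.0572).

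**Figure D4:**
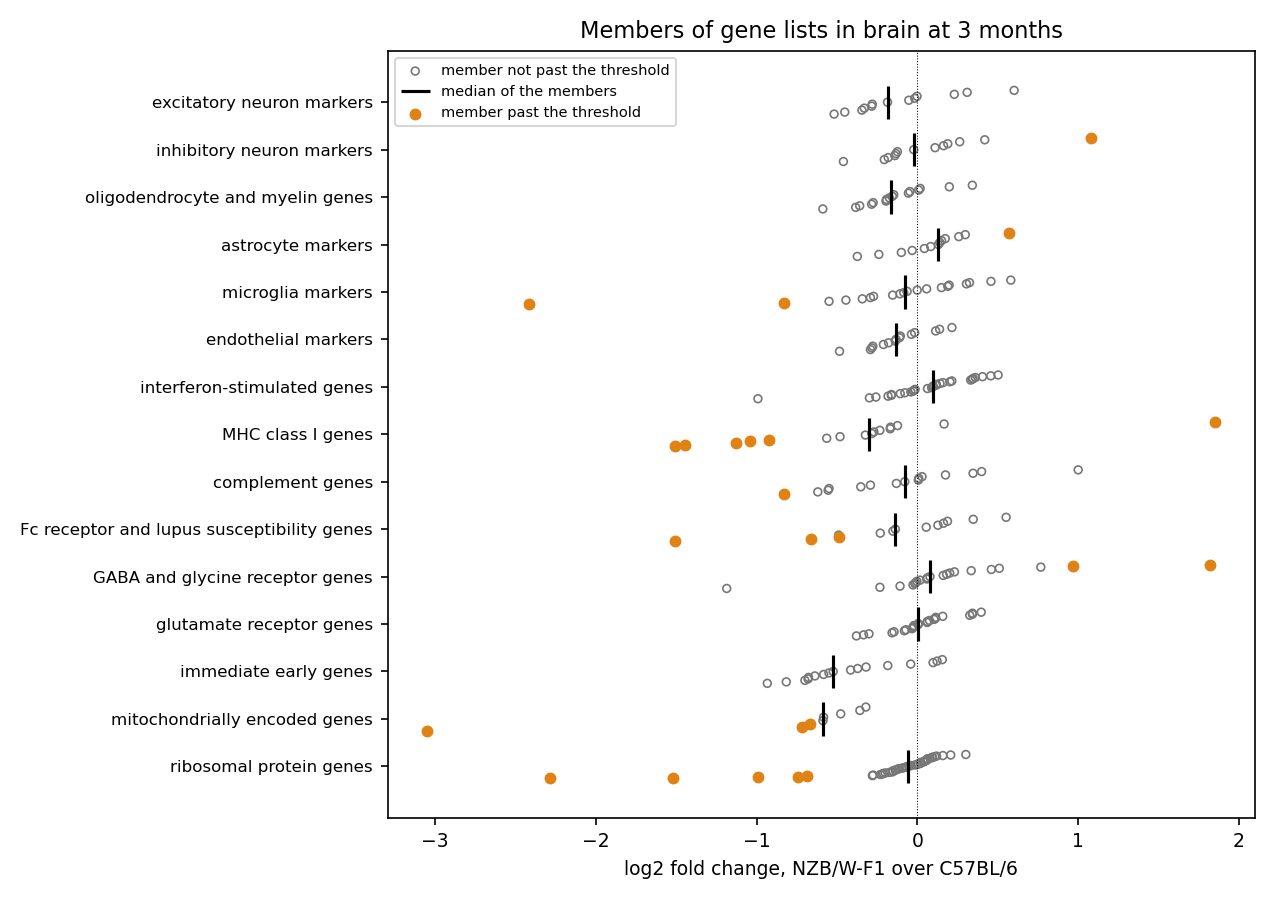
Log2 fold changes of NZB/W-F1 over C57BL/6 in 3-month brain of the tested members of 15 gene lists, with 1 point a gene and a vertical line at each list's median. Filled points passed the threshold; the leftmost point among mitochondrially encoded genes, mt-Nd3, had no read in NZB/W-F1, so its place depends on the pseudocount.

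Interferon-stimulated genes, a group of transcripts often raised in lupus, gave no call. Limma called 0 of 29, where 5 had an unadjusted p under 0.05, and edgeR called 0 and DESeq2 1. Their median log2 fold change was 0.09 and their summed level 226 to 247 CPM in NZB/W-F1 brains, against 229 to 238 CPM in C57BL/6 brains, so the strains overlapped. The member with the smallest p, Herc6, lay lower with 2.19, 2.21 and 4.06 CPM in NZB/W-F1 brains, against 5.54, 7.24 and 5.11 CPM in C57BL/6 brains (log2 fold change -0.99 ± 0.28, adjusted p = 0.0533). In the groups that follow, counts stand against 3.89% of all genes called. Of 10 interferon-gamma inducible GTPases 1 was lower, Igtp (log2 fold change -0.86 ± 0.22, adjusted p = 0.0329), whose call was lost when any of 5 of the 6 libraries was left out (adjusted p 0.0569 to 0.184), all but NZB/W-F1 replicate 3. Of 14 Toll-like and NOD-like receptor genes limma called 0, where 2 had an unadjusted p under 0.05, and edgeR called 0 and DESeq2 1. Of 13 genes of chemokines and cytokines, Ccl25, a chemokine of thymus and gut, was higher with 10.2, 9.55 and 9.29 CPM in NZB/W-F1 brains, against 6.14, 3.88 and 4.88 CPM in C57BL/6 brains (log2 fold change 0.92 ± 0.17, adjusted p = 0.00254), and Ccl27a was lower (log2 fold change -0.43 ± 0.12, adjusted p = 0.0456). The call of Ccl27a, a gene with 57% shared words, was lost when any of 3 of the 6 libraries was left out (adjusted p 0.110 to 0.291), namely C57BL/6 replicate 1 or 2 or NZB/W-F1 replicate 3, and also without both libraries that stood apart. Of 8 restriction factors of the TRIM family Trim12a and Trim30d were lower. For Trim12a, a relative of the antiviral Trim5, all NZB/W-F1 libraries together gave 1 read, against 136 in those of C57BL/6, a C57BL/6 to NZB/W-F1 ratio of 108 with an exact 95% counting interval of 19.1 to 4303. Trim30d had 0.293, 0.177 and 0.781 CPM in NZB/W-F1 brains, against 1.53, 1.85 and 1.84 CPM in C57BL/6 brains, and its call was lost when any of 4 of the 6 libraries was left out (adjusted p 0.0563 to 0.109), namely C57BL/6 replicate 2 or 3 or NZB/W-F1 replicate 1 or 2.

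Fc receptors bind immune complexes, and several sit in loci linked to lupus. Of 13 Fc receptor and lupus susceptibility genes 3 were lower and 0 higher, against 1.94% of all genes lower, with a median of -0.14. Fcgr3, an activating IgG receptor, had 9.22, 8.31 and 8.75 CPM in NZB/W-F1 brains, against 12.8, 13 and 11.8 CPM in C57BL/6 brains (log2 fold change -0.49 ± 0.13, adjusted p = 0.0486). Fcer1g, the signalling chain shared by activating Fc receptors, had 5.78, 5.22 and 4.68 CPM in NZB/W-F1 brains, against 9.21, 9.50 and 7.06 CPM in C57BL/6 brains (log2 fold change -0.66 ± 0.16, adjusted p = 0.0258). Ptpn22, a phosphatase of lymphocyte signalling, had 0.366, 0.619 and 0.781 CPM in NZB/W-F1 brains, against 3.41, 1.22 and 3.73 CPM in C57BL/6 brains (log2 fold change -1.51 ± 0.33, adjusted p = 0.00939). The call of Fcgr3 was lost without any single one of the 6 libraries (adjusted p 0.0623 to 0.184), and the call of Fcer1g when any of 4 of the 6 libraries was left out (adjusted p 0.0831 to 0.132), all but C57BL/6 replicate 3 and NZB/W-F1 replicate 1. That of Ptpn22 was lost without C57BL/6 replicate 1 (adjusted p = 0.0727) or 3 (adjusted p = 0.0714). Without both libraries that stood apart, 1 of the 13 was called.

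Of the gene list for class I of the major histocompatibility complex, which lies on chromosome 17, 37.5% passed, against 3.89% of all genes. Class I molecules present peptides from inside the cell. Besides H2 genes the list holds B2m and the peptide-processing genes Tap1, Tap2, Tapbp, Psmb8 and Psmb9. Of its 16 tested genes 5 were lower and 1 higher in NZB/W-F1, with a median of -0.30. All 6 called were H2 genes, and none of the others named here was called. The same 6 genes passed without the 2 libraries that stood apart. H2-K1, a classical class I heavy chain at chr17:33996017-34000347, had 18.6, 13.2 and 14.7 CPM in NZB/W-F1 brains, against 36.8, 28.7 and 37.5 CPM in C57BL/6 brains (log2 fold change -1.13 ± 0.19, adjusted p = 9.69e-04). H2-T23, which encodes the nonclassical molecule Qa-1, had 5.85, 3.18 and 4.92 CPM in NZB/W-F1 brains, against 17.6, 10.6 and 14.1 CPM in C57BL/6 brains (log2 fold change -1.51 ± 0.23, adjusted p = 3.16e-04). H2-T22 had 6, 7.07 and 5.54 CPM in NZB/W-F1 brains, against 13.7, 12.7 and 13.4 CPM in C57BL/6 brains (log2 fold change -1.04 ± 0.13, adjusted p = 3.08e-05). In all 3 every NZB/W-F1 library lay below every C57BL/6 library. H2-T10, annotated as a polymorphic pseudogene, was the one that was higher, with 4.90, 3.09 and 3.98 CPM in NZB/W-F1 brains, against 0.938, 0.579 and 0.689 CPM in C57BL/6 brains (log2 fold change 1.85 ± 0.23, adjusted p = 3.36e-05). It shares 47.6% of its words with H2-T22, and their sum was 10.9, 10.2 and 9.53 CPM in NZB/W-F1, against 14.7, 13.3 and 14.1 CPM in C57BL/6. H2-Q2 and H2-T24 were the other 2 lower genes, and the call of H2-Q2 was lost from the 6 libraries alone (adjusted p = 0.0724). Exons of H2-T10 and H2-T22 also overlap genes on the other strand, over 27.1% and 29.4% of their length. The strains carry different haplotypes of this complex, and how reads of the NZB and NZW haplotypes align to the C57BL/6 sequence was not tested. Of 6 class II genes 1 passed, H2-DMa, which loads peptides onto class II molecules, with 24, 19.7 and 14.7 CPM in NZB/W-F1 brains, against 13.4, 10.1 and 11.7 CPM in C57BL/6 brains (log2 fold change 0.69 ± 0.18, adjusted p = 0.0423). Its call was lost when any of 5 of the 6 libraries was left out (adjusted p 0.0544 to 0.154), all but NZB/W-F1 replicate 3, and the adjusted p was 0.184 without both libraries that stood apart.

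Mitochondrial and ribosomal genes were lower where they passed. Of 13 mitochondrially encoded genes listed 8 were tested, so their sum covers only a part of the list. Of these 8, 3 were lower, mt-Nd1, mt-Nd2 and mt-Nd3, against 1.94% of all genes, and all 8 lay below 0, with a median of -0.59. The summed level of the 8 was 25610 to 28670 CPM in NZB/W-F1 brains, against 33070 to 43330 CPM in C57BL/6 brains. The sum of mt-Nd3 and its nuclear copy Gm28438 was 4.4 times as high in NZB/W-F1. Both mt-Nd1, with 2751, 2841 and 3072 CPM in NZB/W-F1 brains, against 5408, 4567 and 3911 CPM in C57BL/6 brains (log2 fold change -0.67 ± 0.16, adjusted p = 0.0227), and mt-Nd2, with 2210, 2413 and 2644 CPM in NZB/W-F1 brains, against 4404, 4271 and 3327 CPM in C57BL/6 brains (log2 fold change -0.72 ± 0.16, adjusted p = 0.0146), encode complex I subunits. A nuclear copy of mt-Nd2, Gm13339, which holds 28.3% of its words in mt-Nd2, was higher, and their sum had a ratio of 0.610. The calls of mt-Nd1 and mt-Nd2 did not hold: they were lost when any of 4 of the 6 libraries was left out (C57BL/6 replicate 1 or 2, NZB/W-F1 replicate 1 or 2), at adjusted p 0.0544 to 0.162, and without both libraries that stood apart mt-Nd3 was the single one of the 8 called. Of 46 nuclear genes of oxidative phosphorylation Ndufs5 and Cox5b were lower and 0 were higher, with a median of -0.06, and without the 2 libraries that stood apart 4 were lower, where 2.84% of all genes were. Cox5b, a subunit of cytochrome c oxidase, differed little (log2 fold change -0.35 ± 0.09, adjusted p = 0.0409), and its call was lost when any of 5 of the 6 libraries was left out (adjusted p 0.0624 to 0.245), all but NZB/W-F1 replicate 1. Its copy Gm11273, with 74.4% of its words in Cox5b, was higher, and their sum had a ratio of 0.802. Of 46 ribosomal protein genes 5 were lower, Rpl26, Rpl29, Rplp0, Rps18 and Rps28, and 0 higher, against 1.94% of all genes lower, with a median of -0.06. Without the 2 libraries that stood apart 8 were lower, Rpl41, Rps2 and Rps9 as well, where 2.84% of all genes were, and from the 6 libraries alone the call of Rps28 was lost (adjusted p = 0.0605). Rpl29 had 22.3, 16.4 and 16.6 CPM in NZB/W-F1 brains, against 55.7, 54 and 50.1 CPM in C57BL/6 brains (log2 fold change -1.52 ± 0.11, adjusted p = 2.19e-08). Rps18 had 42.3, 34.6 and 33.1 CPM in NZB/W-F1 brains, against 81.4, 69.1 and 69.3 CPM in C57BL/6 brains (log2 fold change -0.99 ± 0.10, adjusted p = 2.58e-06), and Rplp0 122, 104 and 104 CPM in NZB/W-F1 brains, against 187, 163 and 183 CPM in C57BL/6 brains (log2 fold change -0.69 ± 0.09, adjusted p = 8.75e-05). Pseudogene copies of Rpl26, Rpl29 and Rplp0 were among the 24 pairs above, with sum ratios of 0.867 for Rpl26 and 0.513 for Rpl29, so their levels share the uncertainty of those pairs. Rps18 and Rps28 have a copy that was higher as well: Gm11361 shares 69.8% of its words with Rps18 and the sum of both had a ratio of 0.55, and Gm20568 shares 43.3% with Rps28 with a sum ratio of 0.78, so the levels of these genes are uncertain too. Exon length moved with the difference: the median log2 fold change was -0.07 over 2599 genes of 10 CPM or more with up to 3221 bases of exon and 0.07 over 2599 with 7631 bases or more. In the shorter set 35 genes were higher and 72 lower, and in the longer set 28 and 20. The part of length in the fall of these short transcripts was not tested.

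Single members of other groups passed, where 3.89% of all genes were called. Insig1, which holds the sterol sensor in the endoplasmic reticulum, was the single one of 19 cholesterol synthesis genes called, with 66.7, 69.8 and 70.5 CPM in NZB/W-F1 brains, against 100.6, 90.3 and 110.0 CPM in C57BL/6 brains (log2 fold change -0.53 ± 0.10, adjusted p = 0.00222). Gstm5, a glutathione transferase, was lower with 81.4, 60.7 and 66.4 CPM in NZB/W-F1 brains, against 109, 107 and 107 CPM in C57BL/6 brains (log2 fold change -0.64 ± 0.10, adjusted p = 5.50e-04), 1 of 29 genes of glutathione and oxidative stress. Hspa8, the constitutive heat shock cognate, had 1007, 770.2 and 747 CPM in NZB/W-F1 brains, against 1352, 1254 and 1158 CPM in C57BL/6 brains (log2 fold change -0.59 ± 0.11, adjusted p = 0.00258) and was 1 of 20 chaperones, but its call was lost from the 6 libraries alone (adjusted p = 0.0592). NZB/W-F1 replicate 1 was the highest of its group for each of the last 2. Arrdc2, a glucocorticoid-responsive gene, was lower (log2 fold change -1.08 ± 0.24, adjusted p = 0.0111), but not without C57BL/6 replicate 3 or NZB/W-F1 replicate 2 or 3 (adjusted p 0.0518 to 0.0829). Atf4, a transcription factor of the stress response, was lower (log2 fold change -0.46 ± 0.11, adjusted p = 0.0194), and its call was lost when any of 4 of the 6 libraries was left out (adjusted p 0.0546 to 0.136), namely C57BL/6 replicate 1 or 3 or NZB/W-F1 replicate 2 or 3. Ckb, the brain creatine kinase, had 1611, 1235 and 1022 CPM in NZB/W-F1 brains, against 2174, 1637 and 2065 CPM in C57BL/6 brains (log2 fold change -0.62 ± 0.16, adjusted p = 0.0375), with the same 4 libraries each ending its call (adjusted p 0.134 to 0.245). Its copy Gm12892, with 45.2% of its words in Ckb, was higher, and their sum had a ratio of 0.691. Of 17 clock genes, 37 zinc finger genes of KRAB clusters, 32 clustered protocadherins and 15 genes of adult neurogenesis, limma called 0. At an unadjusted p under 0.05 there were 3, 7, 4 and 0, edgeR called 0 in each, and DESeq2 called 1, 1, 0 and 0.

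Of 10 genes known to vary in brain between mouse strains, 5 passed, against 3.89% of all genes: 3 were higher, Gabra2, Wdfy1 and Alad, and 2 lower. Ide, the insulin-degrading enzyme, named after its values were seen, was among the lower ones (log2 fold change -0.67 ± 0.17, adjusted p = 0.0289), and its call was lost when any of 5 of the 6 libraries was left out (adjusted p 0.0609 to 0.144), all but C57BL/6 replicate 3, and without both libraries that stood apart (adjusted p = 0.118). Alad, an enzyme of heme synthesis at chr4:62509169-62519918, had 61.7, 49.8 and 46.1 CPM in NZB/W-F1 brains, against 23.1, 21.1 and 26.5 CPM in C57BL/6 brains (log2 fold change 1.13 ± 0.13, adjusted p = 1.66e-05). Hdhd3, its neighbour at chr4:62499008-62503467, was higher as well, with 16.8, 11.3 and 12.4 CPM in NZB/W-F1 brains, against 5.54, 5.04 and 5.11 CPM in C57BL/6 brains (log2 fold change 1.27 ± 0.15, adjusted p = 1.40e-05), and was named after its values were seen. For both genes every NZB/W-F1 library lay above every C57BL/6 library. Adi1, an enzyme of methionine salvage (log2 fold change 1.08 ± 0.11, adjusted p = 1.27e-06), and Ppt1, a lysosomal thioesterase (log2 fold change 0.72 ± 0.09, adjusted p = 3.00e-05), were likewise named after their values were seen.

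Of markers of blood, vessels and other cell types few passed, and their counts stand against 3.89% of all genes called. Haemoglobin and other red cell genes summed to 5.85 to 9.06 CPM in NZB/W-F1 brains, against 16.2 to 23 CPM in C57BL/6 brains, without overlap, with a median of -0.96, and limma called 0 of 5, where 3 had an unadjusted p under 0.05, and edgeR called 0 and DESeq2 0. Of 4 tested B cell markers Ighm, the constant region of IgM, was lower with 14.2, 13 and 13.4 CPM in NZB/W-F1 brains, against 31.7, 20.4 and 34.4 CPM in C57BL/6 brains (log2 fold change -1.03 ± 0.23, adjusted p = 0.0113), and 8 of the 12 listed were not analysed here. That call was lost without C57BL/6 replicate 1 or 3 or NZB/W-F1 replicate 2 (adjusted p 0.0526 to 0.0762). Of 3 tested T and NK cell markers Trbc2, a T cell receptor constant region, was lower with 1.24, 1.59 and 0.859 CPM in NZB/W-F1 brains, against 4.61, 2.49 and 3.5 CPM in C57BL/6 brains (log2 fold change -1.21 ± 0.24, adjusted p = 0.00434). Perfusion is stated for NZB/W-F1 mice and not given for C57BL/6 mice in the sources used here, and the part of blood left in the vessels in these 2 genes was not tested. Markers of border macrophages, which sit around vessels and in the meninges, did not pass either. All 5 tested were above 0 with a median of 0.58, and their sums were 22.7 to 26.5 CPM in NZB/W-F1 brains, against 13 to 17.6 CPM in C57BL/6 brains, without overlap. Limma called 0 of them, where 4 had an unadjusted p under 0.05, and edgeR called 0 and DESeq2 0. Of 10 pericyte and smooth muscle markers Acta2, smooth muscle actin, was lower (log2 fold change -0.84 ± 0.22, adjusted p = 0.0376), a call lost when any of 5 of the 6 libraries was left out (adjusted p 0.0505 to 0.191), all but C57BL/6 replicate 2. Of 16 choroid plexus, 13 meningeal, 12 hypothalamic and 5 pituitary genes limma called 0. These had 0, 3, 1 and 0 genes at an unadjusted p under 0.05, and edgeR and DESeq2 called 0 in each. Of 12 thalamus, 12 monoamine neuron, 10 oligodendrocyte precursor and 3 neutrophil and monocyte markers and 21 genes of neurotrophin and neuropeptide signalling, limma called 0. At an unadjusted p under 0.05 each had 1, edgeR called 0, and DESeq2 called 1 for thalamus and 0 elsewhere. The 1 tested gene of the Ifi200 family was not called by any of the 3 tools (unadjusted p under 0.05), and of the pineal and retina list 0 genes were tested. Of 15 complement genes C1qc passed, of 18 reactive astrocyte genes H2-T23, of 6 immunoglobulin genes Ighm, and of 18 genes of endoplasmic reticulum stress Atf4.

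Most genes called at 3 months differed between the strains in the same direction at the other ages, in other mice. At 1 month 894 genes (6.00%) passed, 3.04% higher and 2.96% lower, and at 6 months 647 (4.34%), 2.11% higher and 2.23% lower. By their numbering, the 1-month libraries of the strains come from different sets of samples. At 3 months and at 6 months both strains share a set. The 1-month NZB/W-F1 libraries held 6517766 to 8421758 reads in genes, against 9238691 to 17090322 in C57BL/6. The part of set and depth in the 1-month calls was not tested. Of the 579 genes, 571 had the same sign at 1 month and 571 at 6 months. At 1 month 423 passed in the same direction, 73.1% of the 579 and 47.3% of the 894, and at 6 months 407 did, 70.3% of the 579 and 62.9% of the 647; 0 passed in the opposite direction at either age. At all 3 ages 336 genes passed in one direction, 186 higher and 150 lower, of which 104 were pseudogenes, and 85 passed at 3 months and at no other age. Gabra2 had 126, 143 and 131 CPM in NZB/W-F1, against 39.9, 29.7 and 47.1 CPM in C57BL/6 at 1 month. At 6 months it had 178, 155 and 156 CPM in NZB/W-F1, against 54.6, 55.1 and 38.5 CPM in C57BL/6. Fcrls had 6.30, 9.68 and 9.90 CPM in NZB/W-F1, against 30.4, 36.2 and 48.8 CPM in C57BL/6 at 1 month and 4.11, 5.39 and 3.77 CPM in NZB/W-F1, against 32.5, 32.7 and 31 CPM in C57BL/6 at 6 months. Myoc had 2.53, 4.46 and 1.72 CPM in NZB/W-F1, against 40.1, 44 and 51.2 CPM in C57BL/6 at 6 months. For these 3 genes the strains did not overlap at any age.

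Whether the 3-month difference itself departed from that at another age was tested as an interaction. Against 1 month such a departure cannot be told apart from the sets and depths of the 1-month libraries given above. Against 1 month 1 gene passed in limma (0.00671%), with 805 at an unadjusted p under 0.05, while edgeR called 0 and DESeq2 2. That gene was Gm42756, an antisense transcript at chr9:109537100-109552780 whose exons overlap those of Fbxw15 in part. At 3 months it had 0.146, 0.0884 and 0.0781 CPM in NZB/W-F1 brains, against 3.07, 2.61 and 3.56 CPM in C57BL/6 brains. At 1 month it had 0, 0 and 0.148 CPM in NZB/W-F1, against 0.161, 0.0609 and 0.110 CPM in C57BL/6 (interaction -2.40 log2, adjusted p = 0.008). At 1 month every library of both strains was below the level of 3 reads, so the size of the interaction depends on the pseudocount. Without strand in the counts its reads and those of Fbxw15 cannot be told apart. The call was lost without C57BL/6 replicate 3, while without NZB/W-F1 replicate 1 there were 2 calls. Against 6 months limma called 0, with 416 at an unadjusted p under 0.05, and edgeR and DESeq2 called 0. Cdhr1 overlapped between the strains at 1 month, with 13.4, 17.6 and 16.9 CPM in NZB/W-F1, against 16.3, 9.44 and 17.6 CPM in C57BL/6, but its interaction did not pass (1.27 log2, adjusted p = 0.793). Gabra6 had 29.3, 22.2 and 31.6 CPM in NZB/W-F1, against 35.7, 29.1 and 41.9 CPM in C57BL/6 at 6 months, and its interaction did not pass either (1.32 log2, adjusted p = 1). Pdia4, a disulfide isomerase of the endoplasmic reticulum, had 85.2, 72.1 and 75.2 CPM in NZB/W-F1, against 38, 32.6 and 39.2 CPM in C57BL/6 at 1 month. At 3 months it had 63.6, 41.4 and 47.3 CPM in NZB/W-F1 brains, against 50.4, 51.7 and 46.3 CPM in C57BL/6 brains, and the interaction was -1.06 log2 (adjusted p = 0.381). Sfrp1, a secreted Wnt antagonist named after its values were seen, differed by 0.07 log2 at 1 month and 0.80 at 3 months (interaction adjusted p = 0.746).

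**Figure D5:**
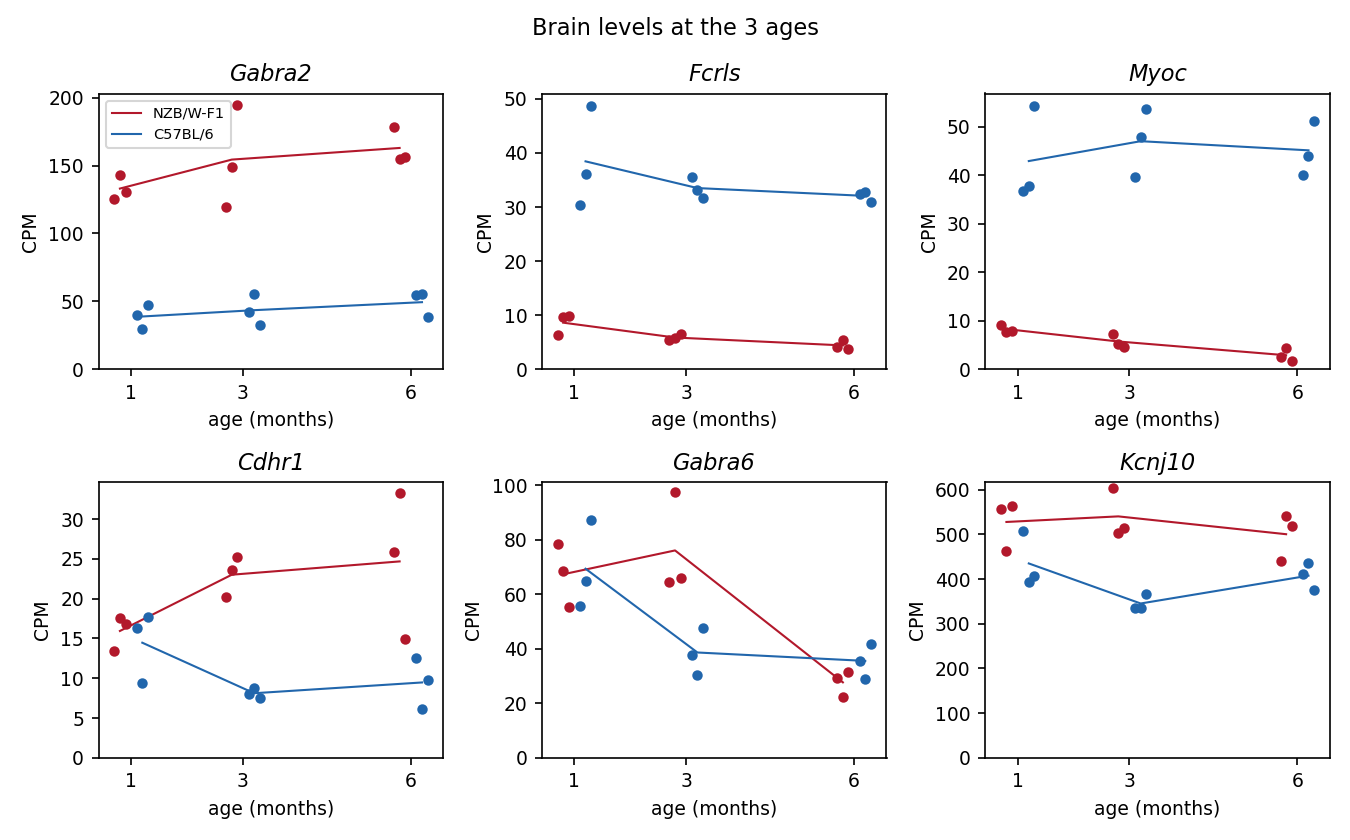
Level in CPM of 6 genes in brain at 1, 3 and 6 months, with 1 point a library and lines through the means of NZB/W-F1 (left of each age) and C57BL/6 (right of it). For Gabra2, Fcrls and Myoc the strains do not overlap at any age, whereas for Cdhr1 and Gabra6 they overlap at 1 month.

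Part of the brain difference was also found in kidney and spleen of the same age, which were taken from the same mice and are no independent animals. In kidney 2177 of 14373 genes (15.1%) passed at 3 months, 8.19% higher and 6.96% lower, and in spleen 1501 of 15097 (9.94%), 6.82% higher and 3.12% lower. Of the 579 genes called in brain, 470 were tested in kidney, where 386 had the same sign, 235 passed in the same direction and 9 in the opposite one. In spleen 484 were tested, 397 had the same sign, 205 passed in the same direction and 8 in the opposite one. In all 3 tissues 158 of the 438 genes tested in each passed in one direction, 98 higher and 60 lower, and 77 of the 158 were pseudogenes. The kidney count was 4218 without C57BL/6 replicate 3, 809 and 815 without its replicates 1 and 2 and 921 without NZB/W-F1 replicate 2. In spleen it was 2982 without NZB/W-F1 replicate 1, 863 and 841 without its replicates 2 and 3, and 470 and 675 without C57BL/6 replicates 1 and 2. Replicate numbers do not name the same mouse in every tissue. By the sample names, NZB/W-F1 replicates 2 and 3 are exchanged between brain and spleen. C57BL/6 replicate 2 of spleen is the mouse of brain replicate 3, and the mouse of brain replicate 2 has no spleen library. Among the 8 named genes whose smallest fold over the 3 tissues was largest were Eno1b, Tpm3-rs7, Hmga1b and Eif3j2, all higher, and Ndufs5, Rpl26 and Tceanc2, all lower. All of these but Tceanc2 are members of the gene and copy pairs or share most of their words with another gene.

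Trim12a was near 0 in NZB/W-F1 in all 3 tissues, with 0, 0.0558 and 0 CPM in NZB/W-F1, against 22.8, 18.9 and 10.6 CPM in C57BL/6 in kidney and 0.317, 0.275 and 0.186 CPM in NZB/W-F1, against 167 and 168 CPM in C57BL/6 in spleen. Wdfy1 had 68.3, 53.4 and 59.7 CPM in NZB/W-F1, against 30.3 and 28.1 CPM in C57BL/6 in spleen (log2 fold change 1.03, adjusted p = 0.00521). H2-K1 was lower in kidney (-1.08, adjusted p = 0.0113) and in spleen (-1.61, adjusted p = 0.00315). All 3 genes passed in each tissue and in the direction seen in brain. Pttg1 was lower in kidney as well (-3.29, adjusted p = 9.09e-09) but not past the threshold in spleen (-0.50, adjusted p = 0.306). C1qc was lower in brain and higher in spleen, with 132, 286 and 414 CPM in NZB/W-F1, against 100.4 and 88.7 CPM in C57BL/6 (1.40, adjusted p = 0.0322). The tables of the 3 tissues were scaled separately, and the difference between tissues was not tested.

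The calls lay on every chromosome tested with more than 1 gene. The share of tested genes called was lowest on chromosome 10, with 1.72% of 698 genes, and highest among nuclear chromosomes on chromosome 13, with 6.56% of 564 genes. On chromosome 13, 23 genes were higher and 14 lower, and on chromosome 9, 11 were higher and 28 lower.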

How the data were processed

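RNA was taken from whole brain with TRIzol and made into TruSeq RNA v2 libraries, per the labels' protocols. The submitters' processing notes name STAR 2.6, HTSeq, edgeR and the build mm10, and whether strand was used in counting is not given in the sources used here. The deposited signal values are read counts per library size (CPM) scaled by the authors between libraries, so that column totals differ from 1000000, and are not plain CPM. In brain 100% of the values were whole multiples of 1 read (tolerance 0.01), which gave the reads per library. The brain table held 14895 genes, 14888 of them matched to GENCODE M21 (GRCm38).

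Log2(CPM + 0.5) was fitted with limma 3.58.1 (trend) over the 18 brain libraries with 6 group means, for genes of 1 CPM or more in 3 libraries, and p-values were two-sided and Benjamini-Hochberg adjusted over all genes tested. Errors of log2 fold changes are standard errors, with 3 libraries a strain, and precision covers counting and mouse to mouse spread together. The planned values were CPM; alternatives on recovered reads used edgeR 4.0.16 and DESeq2 1.42.0. In simulated counts for this comparison over 14895 genes the fit found 98% of 100 changes of 4-fold and 84% of 100 of 2-fold, with 10 false calls. The simulated counts held no shift of a whole library such as that of the 2 that stood apart. These rates need not hold for the real libraries. Kidney counter rows that name no gene, 20.8 to 29.9% of the values, were left out. Deviations of same-numbered libraries of the 2 strains correlated at r = 0.33, 0.26 and -0.32, and those of differently numbered ones at -0.53 to 0.42. These mixed values gave no clear pairing, and replicate numbers were not used as pairs.

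Genes are named by largest fold (12 each way), by difference in CPM (5 each way) or where their smallest fold over brain, kidney and spleen was largest (8). These had to pass, reach a mean of 5 CPM in either strain and not overlap between strains. Others are named by smallest p within a list (up to 4) or by smallest interaction p (5 each), past the threshold or not and at any CPM. Predicted genes, pseudogenes and receptor segments were passed over outside the lists except where said. The pseudogenes, their partner genes, members named only in a list's count and the genes so marked were named after their values were seen, and the genes, lists and tests were chosen with earlier results of these data known. In all 59 lists were counted, 54 with 5 or more members tested, of which 26 had none called. Some genes that the rule names are not reported here.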

Additional observations from a re-analysis of the deposited data

Results flagged for a closer look

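A single gene was picked out by a test of the difference itself: the strain difference of Gm42756 at 3 months departed from that at 1 month by -2.40 on the log2 scale (limma interaction, adjusted p = 0.008), with no NZB/W-F1 library above 1 CPM at either age. The 1-month libraries of the strains differ in set and depth, as given above, and the part of these in the departure was not tested.

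For 10 of the genes reported here every 3-month NZB/W-F1 brain library lay on one side of the C57BL/6 libraries and every NZB/W-F1 library of another tissue on the opposite side. In spleen the log2 fold changes were 1.40 for C1qc, 1.37 for Fcgr3, 1.77 for Ighm, 0.41 for Igtp, 3.43 for H2-Q2 and 0.51 for H2-T24, all lower in brain, and -1.17 for Cdhr1 and -1.14 for Lrat, both higher in brain. In kidney they were 0.23 for Ckb and 1.31 for H2-T24, both lower in brain, and -0.56 for Ccl25, which was higher in brain. The difference between tissues was not tested for any of them. They were looked for among the 96 named genes past the threshold, and the share over all genes was not counted. With so few libraries a full separation can arise by chance. Of all genes called in brain, 9 of 470 tested passed in the opposite direction in kidney and 8 of 484 in spleen. No group here had more than 3 libraries, so single libraries were not tested as outliers.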

How the results depend on the processing

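The 579 calls became 634 with edgeR and 721 with DESeq2 on recovered reads, 583 with median-of-ratios scaling, 561 with plain CPM, 568 with a pseudocount of 0.1, 579 with no filter, 390 with a stricter filter of 5 CPM and 391 from the 6 libraries alone. They ranged from 400 to 616 when 1 library was left out, and became 981 without the 2 that stood apart. That alternative was chosen after seeing the data and drops from each strain the library nearest to the other strain. With a replicate block there were 515. The numbers gave no clear pairing of the mice, and in that fit 509 of the 579 calls remained. Protein-coding genes with few shared words gave 320 calls, 169 from the 6 libraries alone, 182 to 360 with 1 library left out and 706 without the 2 (390 higher, 316 lower). The 108 higher pseudogenes became 50 with the stricter filter and 102 to 112 under the other alternatives. The single interaction call against 1 month became 0 with edgeR, with a pseudocount of 0.1, with the stricter filter and from the compared groups alone, 2 with DESeq2, and 0 to 2 with 1 library left out. At 6 months 647 calls became 380 from the compared groups alone and 405 with the stricter filter, and 449 without replicate 3 of NZB/W-F1, whose Xist level was 0.857 CPM against 305.9 to 729.6 CPM in the other 17 brain libraries, also chosen after seeing the data. In kidney 2177 became 1856 with edgeR (885 higher, 971 lower), 2614 with DESeq2, 596 from the compared groups and 809 to 4218 with 1 library left out, and in spleen 1501 became 743, 2297 with DESeq2 and 470 to 2982. Plain CPM moved the split of higher to lower calls to 388 and 245 at 6 months (main 315 and 332) and to 1490 and 792 in kidney (main 1177 and 1000). Of 96 named genes past the threshold 68 passed under every alternative and 28 lost the call in at least 1, and no value turned its sign past the threshold. Depth limits genes near 3 reads, 0.172 to 0.265 CPM.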
